A study of Mus musculus with 6 samples.

Results

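Retromer, sorting nexin and ESCRT genes encode the proteins that sort cargo on endosomes, and their RNA was compared between *Nhe6*-knockout and wildtype endothelial cell cultures of the mouse cochlea. The members were chosen by name from the deposited gene table: every *Vps*, *Snx* and *Chmp* gene, with *Hgs*, *Stam*, *Stam2* and *Tsg101*. This gave 75 members of 24421 genes, and 73 of them had enough reads to enter the test of 13479 genes. The remaining members, *Snx20* (0 to 4 reads per library) and *Snx22* (3 to 10 reads per library), were below the filter on low counts in both genotypes. Some members carry the name without being part of endosomal sorting coats: *Vps72* encodes a chromatin protein, and the 4 VPS13 genes encode lipid transfer proteins at membrane contacts.

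Endosomes receive what a cell takes up from its surface and pass it along 2 main ways. Retromer, together with sorting nexins that bend the membrane into tubules, returns receptors and transporters to the trans-Golgi network or the plasma membrane. The ESCRT complexes act in sequence on ubiquitin-tagged cargo, fold it into intraluminal vesicles for breakdown in lysosomes, and also cut membranes during cytokinesis and membrane repair.

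RNA was sequenced from 3 *Nhe6*-knockout and 3 wildtype cultures of primary endothelial cells, 1 library each. The cells came from the stria vascularis, taken out together with the spiral ligament according to the methods, of mice aged 10 to 12 postnatal days. Cells of at least 6 mice were pooled per culture. They were purified by cell sorting, grown in endothelial medium with serum and growth factor, and not treated. The knockout mice carry a targeted disruption of *Nhe6* in the whole animal. The labels give C57BL/6N as the strain background of both genotypes, whereas the methods give C57bl6/j, and whether the wildtype mice were littermates is not given in the sources used here.

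Between 25587097 and 29126232 reads per library fell on genes. Wildtype replicate 2 lay far from the other 5 libraries, at 106 against -28.5 to -6.52 on the first principal component. *Nhe6*-knockout replicates 1 and 2 were far more alike than any other replicates of a genotype (chi-square per gene 4.91, against 90.1 to 398), although they differed by more than sampling noise. They were kept as 2 cultures after the labels. Whether they are samples of the same culture was not tested, and in that case the SDs of this genotype would rest on 2 cultures. Of 12 endothelial markers, 6 averaged at least 100 normalized counts (reads scaled to a common library size) and *Cldn5* had no read in any library, while all 8 fibroblast markers, 5 of 8 mural cell, 1 of 8 macrophage, 1 of 6 melanocyte and 2 of 4 epithelial markers averaged at least 100. The summed endothelial markers ranged from 16660 to 25730 normalized counts in *Nhe6*-knockout and from 15610 to 23430 in wildtype libraries, the fibroblast markers from 264600 to 275400 and from 251000 to 384800, and the mural markers from 21790 to 23480 and from 16170 to 29880. These sums hide opposite differences. *Cdh5*, the endothelial cadherin, averaged 210 normalized counts in *Nhe6*-knockout and 3725 in wildtype cultures (log2 fold change -4.15, adjusted p = 0.0133 from edgeR). *Flt1* was also lower without overlap (-1.79). *Cd34* (-1.17) and *Kdr* (-0.42) lay below 0 and *Emcn*, *Eng* and *Tek* at 0.67 to 0.76, all with overlap. *Vwf*, below the filter on low counts, went the other way, higher in *Nhe6*-knockout without overlap. It had 15.9, 23.2 and 5.68 normalized counts in *Nhe6*-knockout and 3.91, 0 and 1.07 in wildtype cultures. *Pecam1*, *Tie1* and *Erg* were below this filter as well, and overlapped. Of 8 mural markers, 5 were higher in *Nhe6*-knockout without overlap (10.3% of all genes were) and none was lower. These were *Pdgfrb*, *Rgs5*, *Des*, *Abcc9* and *Notch3*. *Acta2* (-3.14) and *Cspg4* (-1.27) lay below 0, with overlap, and were highest in wildtype replicate 2. Of 8 fibroblast markers, 2 were higher without overlap, *Dcn* (1.00, adjusted p = 0.0952 from edgeR) and *Col3a1* (0.23), and none was lower. *Col1a1* (-3.35), *Fn1* (-0.94) and *Thy1* (-0.32) lay below 0 and the rest above it, all with overlap. Wildtype replicate 2 differed from the other wildtype cultures in such markers, with 27174 normalized counts of *Col1a1* against 207 and 213 and 16267 of *Acta2* against 29.3 and 70.6, and with 409 of *Emcn* against 13407 and 14723. In addition, 10 cell cycle genes summed to 7064 to 12580 normalized counts in *Nhe6*-knockout and 2183 to 3375 in wildtype libraries. The part of cell mixture and growth state in the differences that follow was not tested, and in bulk RNA fewer cells of a type cannot be told apart from less RNA per cell.

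The endosomal sorting genes differed little between the genotypes. In edgeR's quasi-likelihood test, with p-values adjusted by the Benjamini-Hochberg method across the 13479 genes, 0 of 73 members passed 0.05 (0.0668% of all genes did), and the smallest adjusted p was 0.161, for *Snx24*. DESeq2's Wald test called 1 member, also *Snx24*, with an adjusted p of 0.0118, while it called 4.65% of all genes. At an unadjusted p under 0.05 edgeR gave 9 members (12.3%, against 11.8% of all genes), and all 9 were lower in *Nhe6*-knockout cells, whereas 5.71% of all genes were called lower and 6.14% higher. These were *Snx24*, *Snx14*, *Vps4a*, *Chmp5*, *Snx1*, *Chmp3*, *Vps26a*, *Snx2* and *Chmp7*, among them a retromer gene, both SNX1-type sorting nexins and 4 genes of the last ESCRT steps. The count was 4, 2 and 5 without *Nhe6*-knockout replicate 1, 2 or 3, and 3 with replicates 1 and 2 summed, against 12, 9 and 10 without wildtype replicate 1, 2 or 3. Without wildtype replicate 2, 9.49% of all genes were called lower and 9.99% higher. For the other left-out libraries and the summed replicates the share of all genes was not taken, so those changes in the count have no background.

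**Figure D1:**
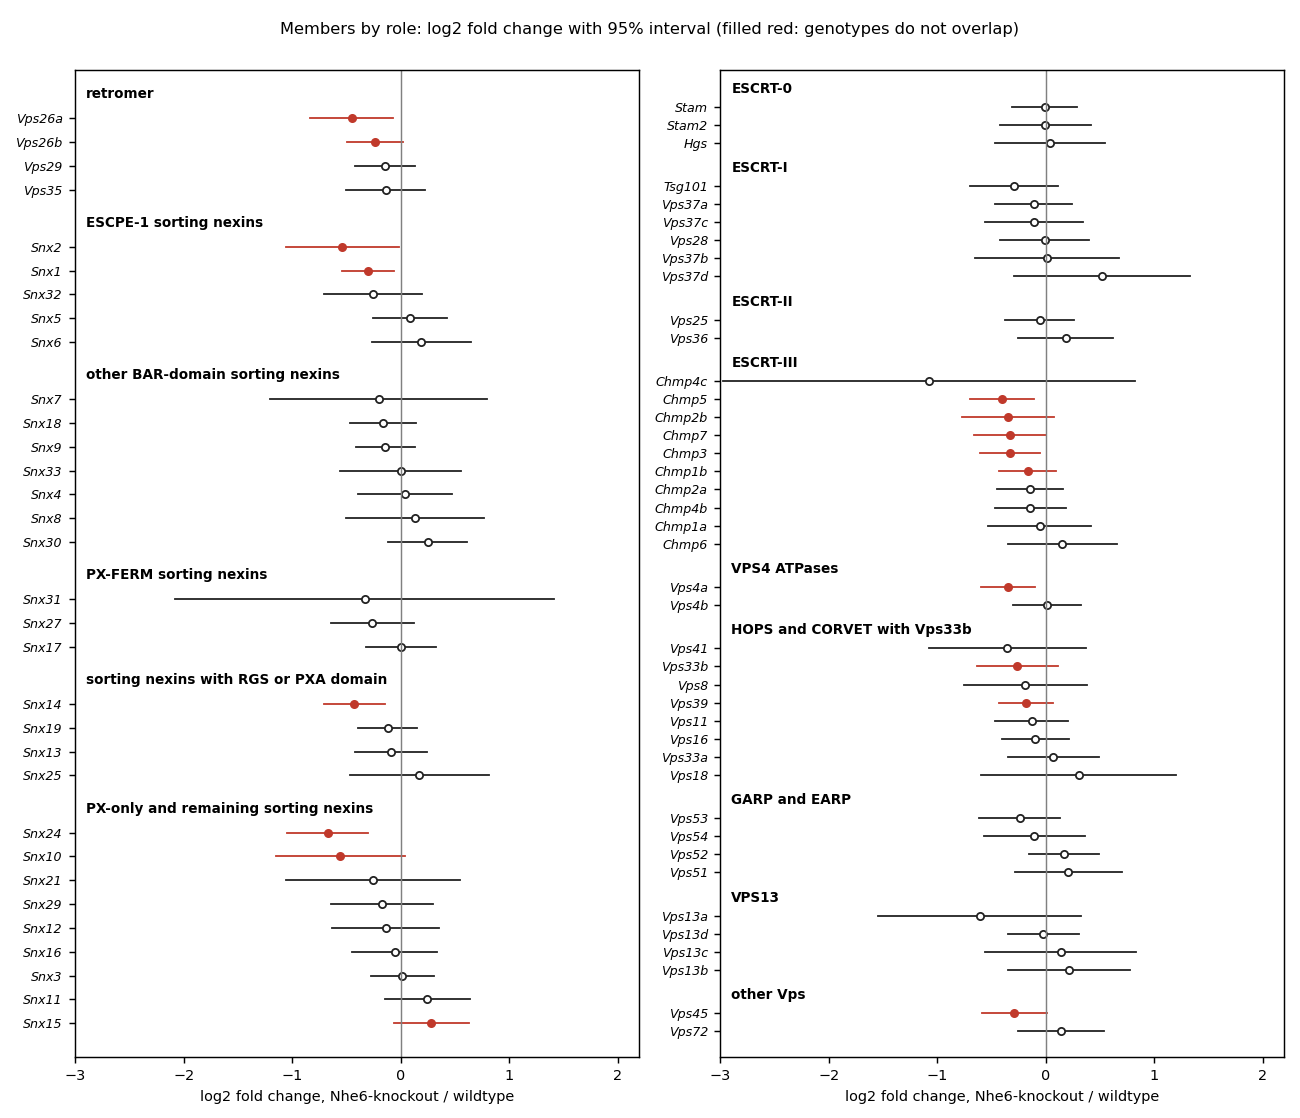
Log2 fold change (*Nhe6*-knockout over wildtype, x axis) of the 73 tested members, grouped by role, with 95% intervals from edgeR's fit. Red filled points mark the 17 members whose genotypes do not overlap in normalized count, and 16 of them lie below 0.

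The differences were small as well as uncertain. The log2 fold changes ran from -1.08 (*Chmp4c*, a sparsely expressed gene) to 0.52 (*Vps37d*), with a median absolute value of 0.17 for the members and 0.22 for all genes tested. For 62 of 73 members (84.9%, against 60.1% of all genes) the 95% interval lay inside -1 to 1, and among genes averaging at least 100 normalized counts the shares were 88.6% of members and 71.5% of all, so for these members an average change beyond doubling or halving lay outside the interval. The interval was inside -0.5 to 0.5 for 26 members. The median SE of the log2 fold change was 0.16 for members and 0.23 for all genes. Among genes averaging at least 100 normalized counts these contrasts were smaller. There the median absolute log2 fold change was 0.17 for members and 0.19 for all, and the median SE 0.16 and 0.20.

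More members lay below 0 than above it, and the excess was smaller without wildtype replicate 2. The log2 fold change was below 0 for 50 of 73 members (68.5%, against 51.9% of all genes), and the median was -0.12 for members and -0.02 for all genes. In 16 members each *Nhe6*-knockout culture was lower than each wildtype culture (21.9%, against 9.57% of all genes), and in 1 member, *Snx15*, each was higher (background 10.3%), which makes 17 members without overlap (23.3%, against 19.9% of all genes). However, wildtype replicate 2 was the highest of the 6 libraries for 41 of 73 members (56.2%), compared with 26.8% of all genes. The members' summed reads took 0.546%, 0.647% and 0.555% of the reads on genes in wildtype replicates 1 to 3 and 0.553%, 0.544% and 0.552% in the *Nhe6*-knockout libraries. Only wildtype replicate 2 stood out in this share, and the other 5 libraries lay within 0.544% to 0.555%.

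**Figure D2:**
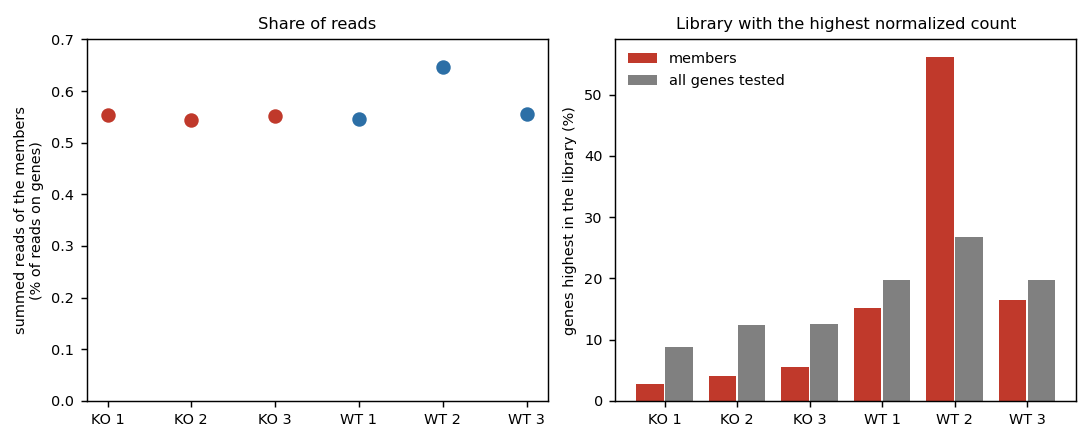
Left, the members' summed reads as a percentage of reads on genes in each library (KO, *Nhe6*-knockout in red; WT, wildtype in blue); right, the percentage of members (red) and of all genes tested (grey) whose highest normalized count is in each library. Wildtype replicate 2 has the largest share of reads, 0.647%, and is the highest library for 56.2% of members.

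Without wildtype replicate 2 the share of members below 0 came closer to that of all genes, while the members without overlap still leaned to the lower side. Then 40 of 73 members lay below 0 (54.8%, against 49.9% of all genes), with a median log2 fold change of -0.03. At an unadjusted p under 0.05 the fit gave 6 lower members (8.22%, against 9.49% of all genes) and 3 higher members, *Snx7*, *Vps18* and *Vps36* (4.11%, against 9.99% of all genes). No member passed after adjustment, where 2.88% of all genes did. The 6 lower members were *Snx24*, *Snx14*, *Vps4a*, *Chmp5*, *Snx1* and *Chmp3*, each also among the 9 named above. Without overlap between the genotypes, 18 members were lower (24.7%, against 19.3%) and 8 were higher (11.0%, against 19.0%).

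**Figure D3:**
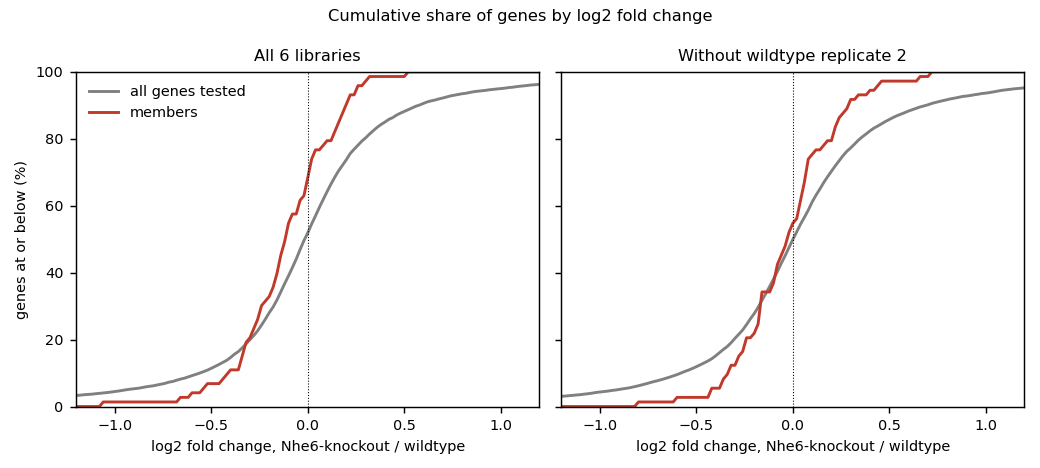
Cumulative percentage of members (red) and of all genes tested (grey) by log2 fold change, from all 6 libraries (left) and without wildtype replicate 2 (right). With all libraries the members' curve crosses 0 at 68.5% and that of all genes near 51.9%; without wildtype replicate 2 the members' curve crosses 0 at 54.8%.

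Promoter sequences are shown for 3 members that hold the whole of a motif known from lysosomal genes, and for a paralog that lacks it. The palindrome GTCACGTGAC is the core of the motif bound by TFEB and its relatives, which switch on genes of lysosomes and endosomes, and it contains the E-box CACGTG. Promoters of 51 of the 75 members were matched in RefSeq (GRCm38.p6), and the 250 bases before each annotated start were searched on both strands. The palindrome was found in *Vps16* and *Vps33a*, which encode core subunits of the HOPS and CORVET tethers, and in the retromer gene *Vps26a* (5.88% of members, against 0.27% of 27025 genes). The 27025 genes are all those with a promoter, whether or not they had reads here, and were not matched to the members in GC content. The sequences below run 5′ to 3′ on the strand of the gene and end at the base before its start, with the palindrome and any further E-box in capitals. *Vps26b*, the paralog of *Vps26a*, is shown for contrast and has neither.

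Vps16, chr2:130424070-130424319, plus strand: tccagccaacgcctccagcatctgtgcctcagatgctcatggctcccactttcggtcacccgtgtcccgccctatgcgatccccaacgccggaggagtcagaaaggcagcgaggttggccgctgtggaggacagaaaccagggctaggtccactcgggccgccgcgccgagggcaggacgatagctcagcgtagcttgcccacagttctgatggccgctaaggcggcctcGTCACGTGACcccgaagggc
Vps33a, chr5:123573016-123573265, minus strand: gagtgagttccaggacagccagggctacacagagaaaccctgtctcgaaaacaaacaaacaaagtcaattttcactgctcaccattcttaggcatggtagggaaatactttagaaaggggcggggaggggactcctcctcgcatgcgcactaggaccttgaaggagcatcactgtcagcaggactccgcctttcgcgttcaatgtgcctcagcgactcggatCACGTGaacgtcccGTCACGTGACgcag
Vps26a, chr10:62486806-62487055, minus strand: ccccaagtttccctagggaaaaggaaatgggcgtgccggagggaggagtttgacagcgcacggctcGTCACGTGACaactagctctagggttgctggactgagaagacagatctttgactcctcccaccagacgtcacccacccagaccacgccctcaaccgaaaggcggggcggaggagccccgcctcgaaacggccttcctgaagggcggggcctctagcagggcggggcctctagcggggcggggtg
Vps26b, chr9:27030095-27030344, minus strand: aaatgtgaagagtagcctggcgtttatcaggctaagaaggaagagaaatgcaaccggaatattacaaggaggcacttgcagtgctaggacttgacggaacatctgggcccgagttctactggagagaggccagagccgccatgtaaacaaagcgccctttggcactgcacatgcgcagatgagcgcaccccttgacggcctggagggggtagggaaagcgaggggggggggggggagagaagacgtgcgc

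The palindrome begins 20 bases before the start of *Vps16*, 14 bases before that of *Vps33a* and 184 bases before that of *Vps26a*. These genes did not share a direction between the genotypes: the log2 fold change was -0.10 for *Vps16*, 0.07 for *Vps33a* and -0.45 for *Vps26a*, against -0.24 for *Vps26b*. The shorter CACGTG was present in 6 members (11.8%, against 6.86% of genes), the 3 above with *Snx5*, *Snx8* and *Snx18*. GGGCGG, the letters of a GC box, occurred in 33 members (64.7%, against 35.4%), and TATAAA in 3 members (5.88%, against 14.3%). The median GC content was 62.0% in member promoters and 52.4% in all. A match describes these windows and is not a measured binding site.

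Retromer is a heterotrimer of VPS35, VPS29 and either VPS26A or VPS26B, and all 4 genes had a log2 fold change below 0, with 2 of them without overlap, where the shares of all genes were 51.9% and 9.57%. *Vps26a* (chr10:62455235-62486805, minus strand), an arrestin-like subunit, had 4906, 4505 and 3976 normalized counts in the *Nhe6*-knockout cultures (replicates 1, 2 and 3, in this order throughout) and 5358, 7161 and 5797 in the wildtype cultures. All 3 *Nhe6*-knockout cultures were below all 3 wildtype cultures, with means of 4462 ± 466 and 6105 ± 941 (SD, n = 3 each). The log2 fold change was -0.45 (SE 0.16, adjusted p = 0.349 from edgeR) and -0.33 without wildtype replicate 2. *Vps26b* had 2740, 2806 and 2559 normalized counts in *Nhe6*-knockout and 3034, 3355 and 3149 in wildtype cultures. Its genotypes did not overlap either, with a log2 fold change of -0.24 (SE 0.11, adjusted p = 0.456 from edgeR). *Vps35*, the backbone of the complex, overlapped between the genotypes with 9575, 8895 and 8915 normalized counts against 8591, 11431 and 10144 (log2 fold change -0.14, 95% interval -0.50 to 0.22, and -0.04 without wildtype replicate 2). *Vps29*, whose product caps VPS35, had 2080, 1894 and 1936 against 2088, 2388 and 2049, where a single *Nhe6*-knockout culture lay above the lowest wildtype culture (log2 fold change -0.14, 95% interval -0.42 to 0.13, and -0.08 without wildtype replicate 2).

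The sorting nexins SNX1 and SNX2 pair with SNX5, SNX6 or SNX32 in a complex named ESCPE-1, which forms tubules and recognises cargo. *Snx1* (chr9:66088133-66126587, minus strand) was the steadiest of the lower members: 2821, 2802 and 2743 normalized counts in *Nhe6*-knockout and 3398, 3352 and 3559 in wildtype cultures. The gap between the genotypes was wider than the range within either, and wildtype replicate 2 was the lowest wildtype value (log2 fold change -0.30, SE 0.10, adjusted p = 0.311 from edgeR). *Snx2*, on chromosome 18, had 4101, 3967 and 4186 against 4600, 7922 and 5295. It did not overlap, but its mean difference leaned on wildtype replicate 2, with a log2 fold change of -0.54 (SE 0.22) over all libraries and -0.28 without that culture. The cargo-binding *Snx5* (log2 fold change 0.09), *Snx6* (0.19) and *Snx32* (-0.26) each overlapped. *Snx6* was lowest in wildtype replicate 2, with 4319 normalized counts against 5955 to 6881 in the other 5 libraries.

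**Figure D4:**
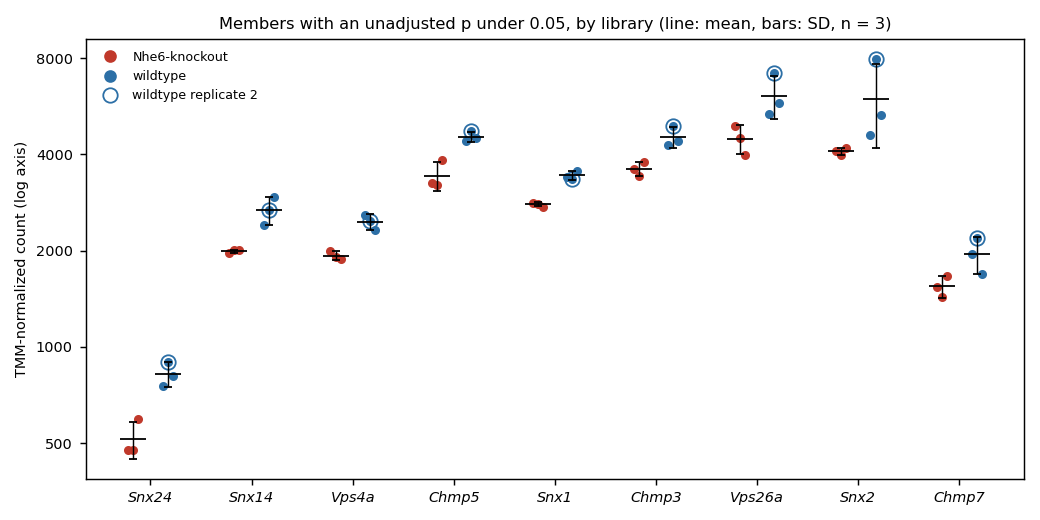
TMM-normalized counts (log axis) of the 9 members with an unadjusted p under 0.05, by library (red, *Nhe6*-knockout; blue, wildtype; open ring, wildtype replicate 2), with mean and SD (n = 3). *Snx24* shows the widest relative gap, and for *Vps26a* and *Snx2* the ringed culture lies well above the other wildtype cultures.

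The largest difference among members without overlap was that of *Snx24*, a small sorting nexin built around a lipid-binding PX domain. It had 475, 477 and 594 normalized counts in *Nhe6*-knockout and 755, 899 and 809 in wildtype cultures. The means were 515 ± 68.5 and 821 ± 73.2 (SD, n = 3 each), so that the mean in *Nhe6*-knockout was lower by more than 3 SDs of either genotype. The log2 fold change was -0.67 (SE 0.16, unadjusted p = 0.00425, adjusted p = 0.161 from edgeR), and over 14 alternative fits it stayed between -0.80 and -0.61 with adjusted p from 0.0118 to 0.67. *Snx24* and *Snx2* are neighbours on chromosome 18, 24.8 kb apart. The 7 other tested genes within 1000 kb of the pair also had log2 fold changes below 0 (51.9% of all genes did), and of these 1 had an unadjusted p under 0.05 (11.8% of all genes), *Prdm6*, which rested mainly on wildtype replicate 2 (95.8, 1036 and 94.1 normalized counts in wildtype cultures).

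*Snx14* (chr9:88376750-88438958, minus strand) encodes a sorting nexin anchored in the endoplasmic reticulum, where it meets lipid droplets. Its normalized counts were nearly equal in *Nhe6*-knockout cultures, at 1968, 2003 and 2005, and lay at 2408, 2678 and 2947 in wildtype cultures. There was no overlap, and the difference was as large without wildtype replicate 2 (log2 fold change -0.43 in both fits, SE 0.12, adjusted p = 0.225 over all libraries from edgeR). Of its relatives with RGS or PXA domains, *Snx13*, *Snx19* and *Snx25* overlapped, with log2 fold changes of -0.09, -0.12 and 0.17. *Snx10*, a PX-domain protein needed by osteoclasts, had 579, 591 and 640 against 726, 1239 and 698 normalized counts. It did not overlap, although wildtype replicate 2 carried much of the log2 fold change of -0.56 (SE 0.25), which was -0.25 without it. *Snx15* was the exception in direction, with 401, 442 and 391 against 350, 331 and 333 normalized counts (log2 fold change 0.28, SE 0.14, adjusted p = 0.501 from edgeR).

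The other sorting nexins overlapped between the genotypes. Among 7 further BAR-domain members, which bend membranes in endocytosis and recycling, the median log2 fold change was -0.00 and the smallest unadjusted p was that of *Snx30* (1960, 1893 and 1530 against 1624, 1307 and 1603 normalized counts, log2 fold change 0.25, SE 0.15, and 0.15 without wildtype replicate 2). *Snx7* turned on wildtype replicate 2, with 1300, 3754 and 1451 normalized counts in wildtype and 1748 to 2096 in *Nhe6*-knockout cultures, and its log2 fold change was -0.20 with and 0.45 without that culture. *Snx27*, which links retromer to receptors with a PDZ-binding tail, had 1800, 1710 and 2071 against 1820, 2437 and 2439 (log2 fold change -0.26, 95% interval -0.65 to 0.12). *Snx17*, its relative in integrin recycling, had a log2 fold change of 0.01 (95% interval -0.32 to 0.33). *Snx3*, which brings retromer to early endosomes, had 0.02 (95% interval -0.27 to 0.30).

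Along the ESCRT sequence, members without overlap were found in ESCRT-III and VPS4 and not in the earlier complexes, a contrast that was not tested. ESCRT-0, I and II bind ubiquitin-tagged cargo in turn, and their 11 genes all overlapped between the genotypes. Overlap was also the usual state of all genes, of which 19.9% were without it in either direction. *Hgs*, the core of ESCRT-0, had 1735, 1959 and 1676 normalized counts in *Nhe6*-knockout and 1856, 2124 and 1244 in wildtype cultures (log2 fold change 0.04, 95% interval -0.47 to 0.54). Its partners *Stam* and *Stam2* both had log2 fold changes near 0 (-0.01 and -0.00). *Tsg101*, the ubiquitin-binding subunit of ESCRT-I, had 1268, 1268 and 1628 against 1561, 1995 and 1546, with *Nhe6*-knockout replicate 3 inside the wildtype range (log2 fold change -0.29, SE 0.17, adjusted p = 0.557 from edgeR, and -0.17 without wildtype replicate 2). *Vps28*, *Vps37a*, *Vps37b* and *Vps37c*, the other ESCRT-I genes above 100 normalized counts, lay between -0.11 and 0.01. *Vps36* of ESCRT-II had 1004, 1052 and 1092 against 772, 1164 and 832, where wildtype replicate 2 was the highest of all and the others of its genotype the lowest (log2 fold change 0.19, SE 0.18, and 0.38 without wildtype replicate 2).

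ESCRT-III proteins polymerise into the filaments that pinch off vesicles, and 9 of their 10 genes lay below 0 (median log2 fold change -0.25, with 51.9% of all genes below 0). In 5 of them, *Chmp5*, *Chmp2b*, *Chmp7*, *Chmp3* and *Chmp1b*, the genotypes did not overlap (9.57% of all genes were lower in this way). *Chmp5* (chr4:40948407-40965303, plus strand), a late-acting regulator of the filament, had 3242, 3210 and 3842 normalized counts in *Nhe6*-knockout and 4403, 4727 and 4486 in wildtype cultures (log2 fold change -0.40, SE 0.12, adjusted p = 0.274 from edgeR). *Chmp3* (chr6:71543797-71582609, plus strand), which caps the filament, had 3598, 3426 and 3772 against 4281, 4911 and 4394 (log2 fold change -0.33, SE 0.12, adjusted p = 0.339 from edgeR). Without wildtype replicate 2 their log2 fold changes were -0.38 and -0.27. In that fit *Chmp1a* (0.07), *Chmp4c* (0.08) and *Chmp6* (0.34) lay above 0, and the other ESCRT-III genes below it (49.9% of all genes).

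*Chmp7*, which starts ESCRT-III assembly at the nuclear envelope, had 1535, 1431 and 1669 normalized counts in *Nhe6*-knockout and 1957, 2194 and 1689 in wildtype cultures. The groups nearly touched, at 1669 and 1689 (log2 fold change -0.33, SE 0.14, adjusted p = 0.421 from edgeR). *Chmp2b*, a gene mutated in a form of frontotemporal dementia, had 2795, 2454 and 3041 against 3106, 4347 and 3125. Its log2 fold change was -0.35 (SE 0.18) with and -0.18 without wildtype replicate 2. *Chmp4b*, the main filament subunit, overlapped (log2 fold change -0.14, 95% interval -0.47 to 0.18), and so did *Chmp2a*, *Chmp1a* and *Chmp6*. *Chmp4c* had the lowest log2 fold change of all members but also the widest interval (-2.98 to 0.83), with 27.6, 21.4 and 67.2 normalized counts against 39.1, 172 and 34.2, and its exons overlap those of *Snx16* on the other strand.

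VPS4 is the ATPase that takes ESCRT-III filaments apart, and of its 2 genes only *Vps4a* was without overlap. *Vps4a* (chr8:107031222-107045755, plus strand) had 1999, 1908 and 1880 normalized counts in *Nhe6*-knockout and 2587, 2469 and 2315 in wildtype cultures. The log2 fold change of -0.35 (SE 0.10, adjusted p = 0.266 from edgeR) was the same without wildtype replicate 2. *Vps4b* had 2751, 2483 and 2793 against 2307, 2749 and 2899, which overlapped widely (log2 fold change 0.01, 95% interval -0.30 to 0.33). As a share of both genes per transcript length, *Vps4a* made up 60.7%, 62.0% and 58.9% in *Nhe6*-knockout and 70.5%, 65.6% and 62.9% in wildtype cultures. The shares did not overlap, with means of 60.5% ± 1.59 and 66.4% ± 3.81 (SD, n = 3 each), where a two-sided exact permutation test of 3 and 3 cultures cannot go below p = 0.1.

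In the other sets of paralogs or alternative subunits the ranges of the genotypes overlapped, apart from 3 subunits. For these shares and that of *Vps4a* no background over other gene sets was taken. Of single genes, 19.9% were without overlap in normalized count. *Vps26a* made up 69.4% ± 1.56 of the VPS26 genes per length in *Nhe6*-knockout and 72.4% ± 1.97 in wildtype cultures, with ranges that overlapped although the means lay more than either SD apart. The same held for *Vps33a* among the VPS33 genes, at 75.9% ± 3.0 against 71.5% ± 1.78. *Snx1* made up 40.5% ± 0.915 of *Snx1* and *Snx2* against 37.4% ± 6.79. Wildtype replicate 2 was low for *Snx1*, at 29.7%. The share of *Snx32* among *Snx5*, *Snx6* and *Snx32* was lower without overlap, at 7.36% ± 0.266 against 9.59% ± 1.27, and that of *Snx6* was higher per length, at 64.3% ± 0.624 against 61.1% ± 2.61, although by raw counts *Snx6* overlapped. *Vps37d* made up 6.42% ± 1.56 against 4.29% ± 0.793 of the VPS37 genes per length, without overlap, but by raw counts it overlapped as well. *Vps39*, the subunit of HOPS, against *Vps8*, that of CORVET, stood at 66.8% ± 1.54 and 67.3% ± 6.73, so this RNA share did not differ beyond the spread. The tethers themselves were not measured.

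**Figure D5:**
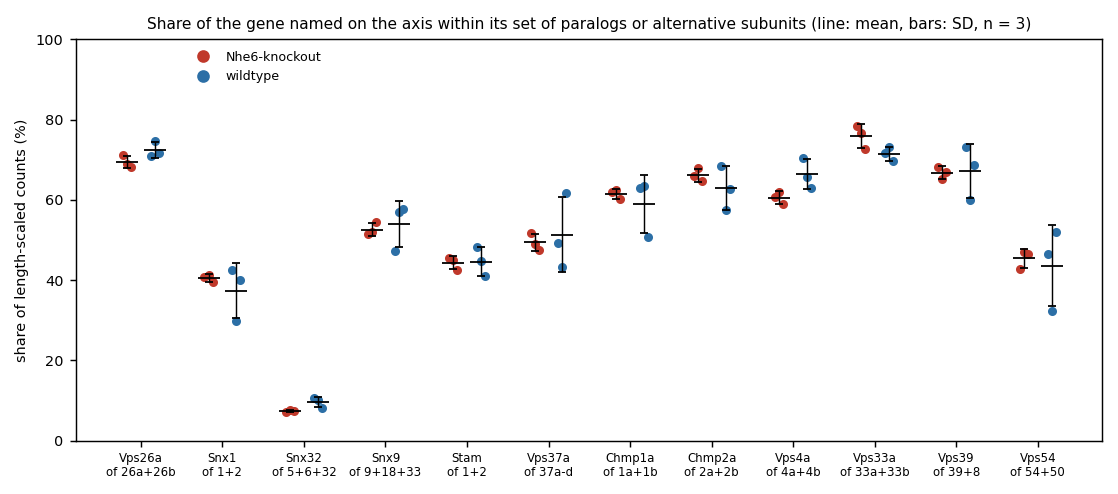
Share of 1 gene per set, named on the x axis, in the summed length-scaled counts of its set of paralogs or alternative subunits (y axis, %), by library (red, *Nhe6*-knockout; blue, wildtype), with mean and SD (n = 3). Of the 12 genes plotted, *Vps4a* and *Snx32* do not overlap between the genotypes.

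HOPS and CORVET tether endosomes before fusion, and GARP and EARP tether vesicles that come from them. *Vps39*, the RAB7-binding end of HOPS, had 2138, 1996 and 2236 normalized counts in *Nhe6*-knockout and 2380, 2450 and 2395 in wildtype cultures, without overlap (log2 fold change -0.18, SE 0.10, adjusted p = 0.553 from edgeR). *Vps33b*, which works outside HOPS with VIPAS39, had 350, 402 and 391 against 427, 514 and 430, likewise without overlap (log2 fold change -0.26, SE 0.16, and -0.17 without wildtype replicate 2). *Vps41* at the other end of HOPS showed the effect of a single library, with 5660, 12461 and 6854 in wildtype against 6194 to 6956 in *Nhe6*-knockout cultures. Its log2 fold change was -0.36 with and 0.05 without wildtype replicate 2. *Vps53* had the smallest unadjusted p of GARP and EARP, with 1501, 1492 and 1333 against 1608, 2047 and 1463 normalized counts (log2 fold change -0.24, SE 0.16, and -0.10 without wildtype replicate 2). It overlapped, as did *Vps51*, *Vps52* and *Vps54*.

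Among the remaining members, *Vps45*, which drives fusion of early endosomes through SNARE proteins, had 598, 601 and 650 normalized counts in *Nhe6*-knockout and 742, 800 and 718 in wildtype cultures. The genotypes did not overlap (log2 fold change -0.29, SE 0.12, adjusted p = 0.434 from edgeR), and the log2 fold change was -0.25 without wildtype replicate 2. *Vps13a*, the lipid transfer gene mutated in chorea-acanthocytosis, had 1355, 4200 and 2201 in wildtype cultures against 1635 to 1750 in *Nhe6*-knockout cultures. The *Nhe6*-knockout values lay inside the wildtype range, and the log2 fold change was -0.61 with and -0.08 without wildtype replicate 2. *Vps13b*, *Vps13c* and *Vps13d* lay between -0.02 and 0.21.

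The members also differed widely in level, here as mean normalized counts per kb of the principal transcript over both genotypes. *Snx6* was highest at 3176, followed by *Chmp2a* at 3029, *Chmp4b* at 2942, *Vps35* at 2761, *Snx3* at 2666 and *Chmp5* at 2624. At the low end were *Snx31* at 17.4, *Chmp4c* at 9.74, *Snx22* at 2.27 and *Snx20* at 1.16. The abundant members thus included retromer, ESCPE-1 and ESCRT-III genes, and levels that differ by less than the SD of the cultures, as those of *Snx6*, *Chmp2a* and *Chmp4b*, have no settled order. *Nhe6*-knockout cultures were the more even in this list, with a median coefficient of variation of 5.55% against 15.4% in wildtype cultures, and all genes showed the same contrast (10.7% against 23.6%). The alike *Nhe6*-knockout replicates 1 and 2 and the distant wildtype replicate 2 enter these values.

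Genes that work with the members but fall outside the naming rule mostly differed little as well. Their median absolute log2 fold change was 0.18, and that of the cargo genes was 0.22, as for all genes tested. Of 57 listed partners and cargo 56 were tested, 36 had a log2 fold change below 0 (median -0.07, with 51.9% of all genes below 0), and none had an adjusted p under 0.05. Without overlap between the genotypes, 9 of the 56 were lower and 2 were higher, where the shares of all genes were 9.57% and 10.3%. At an unadjusted p under 0.05, 2 were lower and 2 were higher (11.8% of all genes in either direction). The lower genes were *Becn1* (log2 fold change -0.43, SE 0.12) and *Pik3c3* (-0.29, SE 0.12), subunits of the lipid kinase that makes the endosomal phosphoinositide which PX domains bind. *Becn1* had 2833, 2856 and 2540 normalized counts in *Nhe6*-knockout and 3892, 3874 and 3303 in wildtype cultures, without overlap (adjusted p = 0.251 from edgeR). The higher genes were *Lrp1*, an endocytic receptor (log2 fold change 0.71, SE 0.26, adjusted p = 0.363 from edgeR), and *Cep55*, which brings ESCRT-III to the bridge between dividing cells. *Cep55* had 238, 249 and 110 against 26.4, 41.3 and 16.0 normalized counts (log2 fold change 2.83, SE 0.50, adjusted p = 0.103 from edgeR), and it moved with the cell cycle genes described above, of which 9 of 10 were higher at an unadjusted p under 0.05. The part of growth state in these values was not tested.

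Differences in the partner complexes were of similar size. Retriever, a relative of retromer, is listed under the older symbols *9030624J02Rik* (*Vps35l*, log2 fold change -0.19) and *Dscr3* (*Vps26c*, -0.18), and only *Vps35l* was without overlap. The 5 genes of the WASH complex, which builds actin on retromer tubules, had a median of -0.07, and the 12 of the Commander complex had a median of -0.04. Of 11 further ESCRT partners 9 lay below 0 (median -0.14), of 7 tethering and lipid kinase genes 5 did (median -0.21), and *Vps50* of EARP, listed as *Ccdc132*, had -0.20. The 4 regulators of retromer had a median of -0.05, and among them *Rab7*, the GTPase that recruits retromer to late endosomes, overlapped (-0.36, SE 0.17). The 14 tested cargo genes, receptors and transporters carried by these complexes, had a median of 0.16, with 6 below 0. The lowest was *Wls*, which carries Wnt proteins, at -0.88, with 17040, 55524 and 28075 normalized counts in wildtype and 15855 to 22238 in *Nhe6*-knockout cultures, which overlapped.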

How the data were processed

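Libraries were made by the authors from poly(A)-enriched RNA with a stranded kit and sequenced for 75 cycles. The deposited values are raw counts of reads per gene symbol, and the submitters' processing notes name bcl2fastq 2.20.0.422, STAR 2.7.7a, HTSeq 0.13.5, DESeq2 1.26.0 and the build mm10. The strand setting and the annotation are not given in the sources used here. Of the 75 members, 27 have exons overlapping another gene, 7 on the same strand and 20 on the opposite strand. 5 summary lines (22.2% of reads) were left out.

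Genes were filtered with filterByExpr (minimum count 10), scaled with TMM (factors 0.976 to 1.03) and compared with edgeR 4.0.16 (quasi-likelihood test, two-sided, R 4.3.3), with Benjamini-Hochberg adjustment over 13479 genes. The SE is the size of the log2 fold change divided by the square root of F, and 95% intervals use the degrees of freedom of the fit. Alternatives used DESeq2 1.42.0, limma 3.58.1 (voom), other scaling, other filters, a block, summed replicates and left-out libraries. Tests were tried on simulated counts. Replicates are separate cultures according to the methods. Depth limits members with under 100 normalized counts.

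Every member could be named. Full values are given for the member with the smallest p in each role group, for up to 10 of the largest differences without overlap, for retromer and for VPS4. Other members singled out (*Snx7*, *Snx15*, *Vps33b*, *Vps41*, *Chmp4c*), and the genes outside the list named for their difference, were chosen after their values were seen. Members, role groups and partner and marker lists were chosen with earlier results of these data known. Transcript lengths and positions are from GENCODE M21 (GRCm38). The level of the targeted gene is not reported here.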

Additional observations from a re-analysis of the deposited data

How the results depend on the processing

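The alternatives were edgeR with DESeq2 size factors or upper-quartile scaling, 2 other filters, DESeq2's Wald test, limma-voom, a replicate block, *Nhe6*-knockout replicates 1 and 2 summed, and each library left out in turn, 14 in all. For 24 members with full values this gave 336 comparisons, of which 329 kept their direction and side of the threshold. The number of members with an adjusted p under 0.05 was 0, and 1 with DESeq2's Wald test (*Snx24*). The number with an unadjusted p under 0.05 was 9, all lower, and became 5 with the replicate block, 3 with the summed replicates and 2 to 12 with a library left out. The fewest, 2, came without *Nhe6*-knockout replicate 2, with 4 and 5 without *Nhe6*-knockout replicates 1 and 3, fits that rest on fewer samples. At this threshold the share of all genes was taken only for the main fit and without wildtype replicate 2. Members lower without overlap numbered 16, with 15 under upper-quartile scaling and 17 to 26 with a library left out (25 without wildtype replicate 1, 26 without wildtype replicate 3). Fewer libraries make overlap less likely. Without wildtype replicate 2 the share of all genes lower in this way rose from 9.57% to 19.3%, and the share higher from 10.3% to 19.0%. These shares were not taken for the other alternatives. Members higher without overlap numbered 1, with 2 under upper-quartile scaling and 2 to 8 with a library left out. 2 members reversed: *Hgs* ranged from -0.16 to 0.20 in log2 fold change with a library left out, and *Vps4b* from -0.0834 to 0.0752, with -0.0021 without the filter on low counts. The cause of these reversals was not tested. Upper-quartile scaling shifted all genes by 0.03, which left 45 members below 0 in place of 50. Same-numbered replicates did not vary together (r of their deviations 0.207, -0.189 and 0.111), so the numbers were not taken as pairs.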
